A study of Saccharomyces cerevisiae with 6 samples.

Results

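The 31 genes described here encode the enzymes that build ergosterol in budding yeast, the acyltransferases that store it as steryl esters, and a few proteins that regulate or bind sterols. They were chosen by name from the known pathway, with earlier results of these data known. All 31 were measured, out of 5656 genes with a probe set assigned to a single gene. Levels came from 6 one-colour Affymetrix arrays of total RNA from Saccharomyces cerevisiae: 2 arrays of the Tra1 mutant M1, 2 of the Tra1 mutant M8 and 2 of a wild-type strain (WT). Tra1 is the large subunit through which the SAGA and NuA4 histone acetyltransferase complexes meet activators, and M1 and M8 are described in the labels as defective in the interaction with the activator Gal4. All 3 groups were untreated cells grown in the rich glucose medium YPD. Each group is known only by its label. The sources used here do not give the amino acid changes, the strain background, the growth stage or the presence of another TRA1 copy. The arrays of a group are labelled as duplicates and no separate cultures are named, so each p-value reflects no more than the scatter of these samples, which could be technical.

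Ergosterol is the main sterol of fungal membranes and takes the place that cholesterol has in animals. Its synthesis starts from acetyl-CoA, passes through mevalonate and farnesyl pyrophosphate to squalene, and needs molecular oxygen, haem and electrons from NADPH for many of the later steps. When sterol is short, the zinc cluster factors Upc2 and Ecm22 activate most of the pathway genes, and surplus sterol is esterified by Are1 and Are2 and kept in lipid droplets. The comparisons of M1 and M8 with WT address whether the messages of this pathway differ in cells with these forms of Tra1.

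The arrays had medians between 6.48 and 6.52 on the log2 scale and correlated with Pearson's r from 0.988 to 0.998 over all 9275 probe sets. Of the 6 arrays M1 replicate 2 was the most distant, its probe sets scattering around the average of the others with an SD of 0.324 while the 5 other arrays gave 0.156 to 0.228. For 91 tRNA genes the median deviation from the other arrays was 0.58 in M1 replicate 2 and -0.49 in M1 replicate 1, and the part of this in the results for M1 was not tested. Of 7 genes that mark MATa cells, 3 were lower in M1 and 2 in M8 than in WT at an unadjusted p under 0.05. These are 42.9% and 28.6%, against 3.47% and 2.32% of all genes. Of 4 genes that mark MATalpha cells, 0 passed in either. The difference was below 0 for 6 MATa markers in M1 and 4 in M8 (85.7% and 57.1%, against 47.3% and 43% of all genes). Among the MATalpha markers it was below 0 for 3 in M1 and 2 in M8 (75% and 50%). A change of mating type was not tested.

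The sterol genes as a group stayed close to their WT levels in both mutants, and the few members that stood apart did so by less than 1.4-fold. The median log2 difference over the 31 genes was -0.0010 in M1 minus WT and 0.017 in M8 minus WT, beside 0.012 and 0.029 over all 5656 genes. Differences of the members ran from -0.46 (ERG1) to 0.45 (ARE2) in M1 and from -0.32 (UPC2) to 0.31 (ERG20) in M8. In M1, 16 of the 31 lay below WT (51.6%, against 47.3% of all genes), and in M8 13 did (41.9%, against 43% of all genes). Fewer molecules of a message per cell and fewer cells that carry it cannot be told apart in these bulk samples.

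No member passed limma's moderated test after Benjamini-Hochberg adjustment over all genes, in either mutant. In M1 that test called 0 of 31 members and 0% of all genes in each direction, and in M8 likewise 0 members and 0% of all genes. At an unadjusted p under 0.05, 2 members were higher and 1 lower in M1, where 5.11% of all genes were higher and 3.47% lower. In M8, 1 member was higher and 2 were lower, where 4.74% of all genes were higher and 2.32% lower. The 3 members in each mutant are 9.68% of the list, near the 8.57% of all genes in M1 and the 7.05% in M8. An ordinary linear model without moderation also called 0 members after adjustment. Both M1 arrays lay above both WT arrays for 6 members (19.4%, against 22% of all genes) and below them for 5 (16.1%, against 13.5%). Both M8 arrays lay above both WT arrays for 6 members (19.4%, against 29% of all genes) and below them for 6 (19.4%, against 19.1%).

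**Figure D1:**
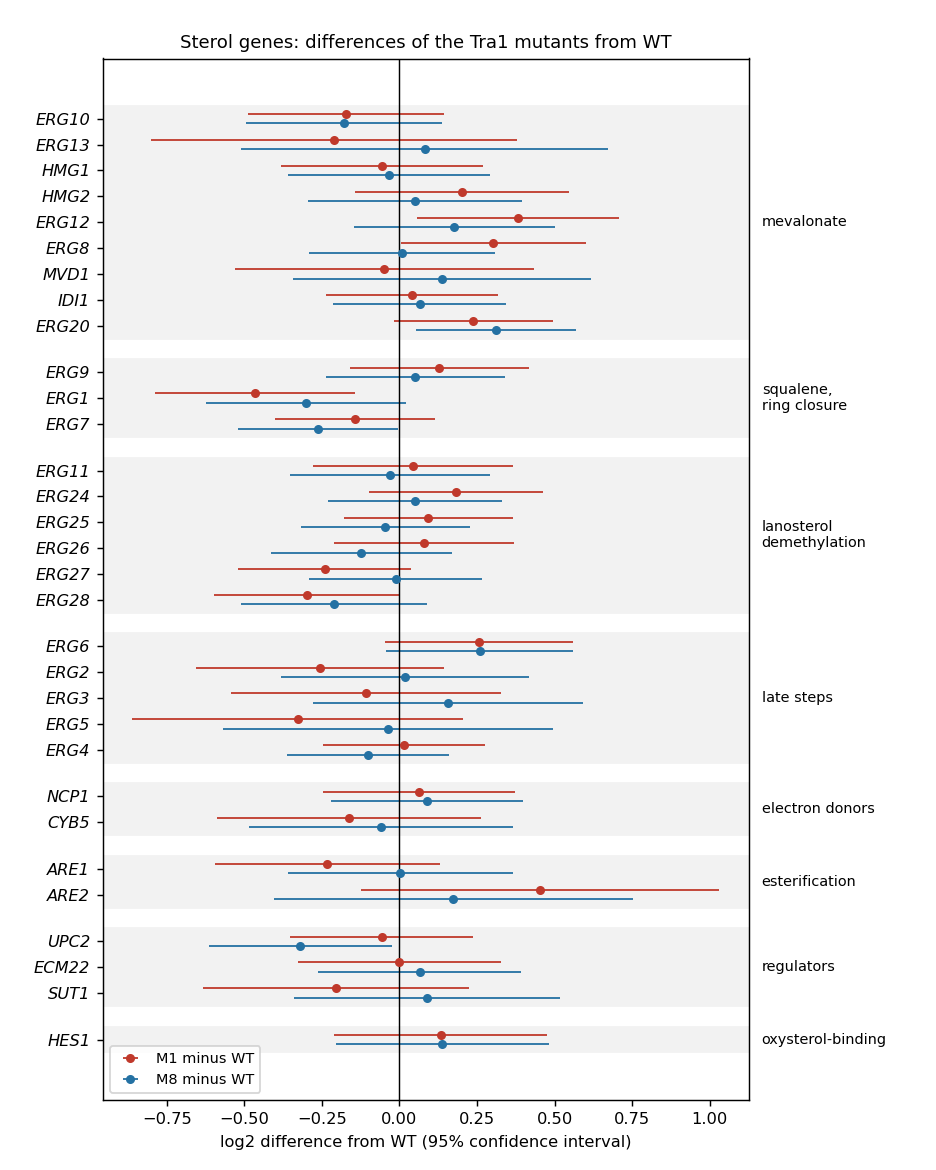
Log2 difference from WT (x axis) of each of the 31 sterol genes (rows, in pathway order), with M1 minus WT in red above M8 minus WT in blue; bars are 95% confidence intervals from limma on 2 arrays per group. Most intervals cover 0, while ERG1 lies at -0.46 in M1 and ERG20 at 0.31 in M8.

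The precision sets what could be seen. The 95% confidence interval of a member's difference reached a median of 0.32 to either side, from 0.26 for ERG20 to 0.59 for ERG13. For 30 of the 31 members in M1 and 31 in M8 the interval lay within a log2 difference of 1 on both sides. A 2-fold change in either mutant was thus outside it for all but ARE2 in M1. The fit assumes the same spread in all groups. Over all genes the SD of replicate 2 minus replicate 1 was 0.349 in M1, 0.142 in M8 and 0.198 in WT. The M1 intervals may therefore be too narrow and the M8 intervals too wide. Changes of about 1.2-fold were not resolved for most members.

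The mevalonate branch makes farnesyl pyrophosphate for sterols, haem A, dolichol, ubiquinone and prenylated proteins. Its 9 genes had a median difference of 0.042 in M1 and 0.065 in M8, with 4 of them below WT in M1 and 2 in M8. ERG20, the gene of farnesyl pyrophosphate synthase, where the routes to sterols and to other isoprenoids part, had log2 levels of 11.66 and 11.70 in M1 and 11.74 and 11.77 in M8, against 11.50 and 11.38 in WT. All 4 mutant arrays lay above both WT arrays, and the duplicates of each group were close together. The difference was 0.24 (SE 0.11) in M1 and 0.31 (SE 0.11) in M8, with limma adjusted p = 0.616 and 0.66. The sign was the same under all 15 alternative settings in each mutant. It was largely fixed beforehand, since many settings leave the difference unchanged and arrays without overlap keep the sign when an array is left out.

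ERG12, the gene of mevalonate kinase, had log2 levels of 8.08 and 7.77 in M1 and 7.76 and 7.68 in M8, against 7.61 and 7.47 in WT. The mutant arrays again lay above both WT arrays, with M1 replicate 1 apart from the rest. The difference was 0.38 (SE 0.14) in M1, with limma adjusted p = 0.541, and 0.18 (SE 0.14) in M8, with adjusted p = 0.868. ERG12 is the only member with more than 1 probe set. Its other 3 probe sets, which were dimmer, gave 0.043, 0.25 and -0.010 in M1 and 0.56, 0.60 and -0.17 in M8, so the gene's probe sets did not share 1 direction.

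ERG8, which encodes phosphomevalonate kinase, the enzyme after mevalonate kinase, was higher in M1 at an unadjusted p of 0.0479. It had log2 levels of 10.19 and 10.31 in M1 and 10.07 and 9.84 in M8, against 10.02 and 9.88 in WT. Both M1 arrays exceeded the WT arrays, while the M8 arrays spanned them. The difference was 0.30 (SE 0.13) in M1 and 0.0077 (SE 0.13) in M8, with limma adjusted p = 0.574 and 0.995. The test of M8 minus M1 itself gave -0.30 (SE 0.13) with limma adjusted p = 0.721.

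None of the other mevalonate genes passed at an unadjusted p under 0.05. ERG10, the acetoacetyl-CoA thiolase gene at the head of the branch, differed by -0.17 (SE 0.14) in M1, and by -0.18 (SE 0.14) in M8. ERG13, which encodes HMG-CoA synthase, differed by -0.21 (SE 0.25) in M1, and by 0.081 (SE 0.25) in M8. MVD1, the mevalonate pyrophosphate decarboxylase gene, differed by -0.049 (SE 0.21) in M1, and by 0.14 (SE 0.21) in M8. Leaving out M1 replicate 1 or M1 replicate 2 gave M1 values of -0.65 and 0.23 for ERG13 and of -0.39 and 0.29 for MVD1, so neither gene's direction in M1 was resolved. IDI1, which encodes the isomerase of the isoprene unit, differed by 0.042 and 0.065.

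HMG1 and HMG2 encode the paralogous HMG-CoA reductases, the main control point of the branch and the target of statins. HMG1 had log2 levels of 11.24 and 10.94 in M1 and 11.11 and 11.11 in M8, against 11.24 and 11.04 in WT, and the groups overlapped. HMG2 had 9.32 and 9.61 in M1 and 9.42 and 9.21 in M8, against 9.36 and 9.17 in WT, and these overlapped too. The differences were -0.056 (SE 0.14) and -0.034 (SE 0.14) for HMG1 and 0.20 (SE 0.15) and 0.051 (SE 0.15) for HMG2, in M1 and M8.

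The 3 genes from farnesyl pyrophosphate through squalene to the first sterol had a median difference of -0.14 in M1 and -0.26 in M8. ERG1 encodes squalene epoxidase, the first oxygen-requiring enzyme of sterol synthesis and the target of terbinafine. Its log2 levels were 10.57 and 10.27 in M1 and 10.55 and 10.62 in M8, against 10.97 and 10.80 in WT. Every mutant array lay below both WT arrays. ERG1 differed by -0.46 (SE 0.14) in M1, with a 95% interval of -0.79 to -0.14, and by -0.30 (SE 0.14) in M8, with an interval of -0.62 to 0.022. The limma adjusted p was 0.479 in M1 and 0.721 in M8. As a level, ERG1 stood at 0.725 of WT in M1 and 0.812 in M8, and its difference was at percentile 1.49 of all genes in M1 and 3.2 in M8.

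ERG7, which encodes lanosterol synthase, the enzyme that closes the sterol rings after Erg1, gave values on the same side. It had log2 levels of 9.53 and 9.40 in M1 and 9.37 and 9.32 in M8, against 9.60 and 9.61 in WT. All mutant arrays were below the WT arrays, which were nearly equal. ERG7 differed by -0.14 (SE 0.11) in M1, and by -0.26 (SE 0.11) in M8, with limma adjusted p = 0.718 and 0.702. ERG9, the squalene synthase gene just before them, differed by 0.13 (SE 0.12) and 0.051 (SE 0.12), with overlapping arrays in both mutants.

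**Figure D2:**
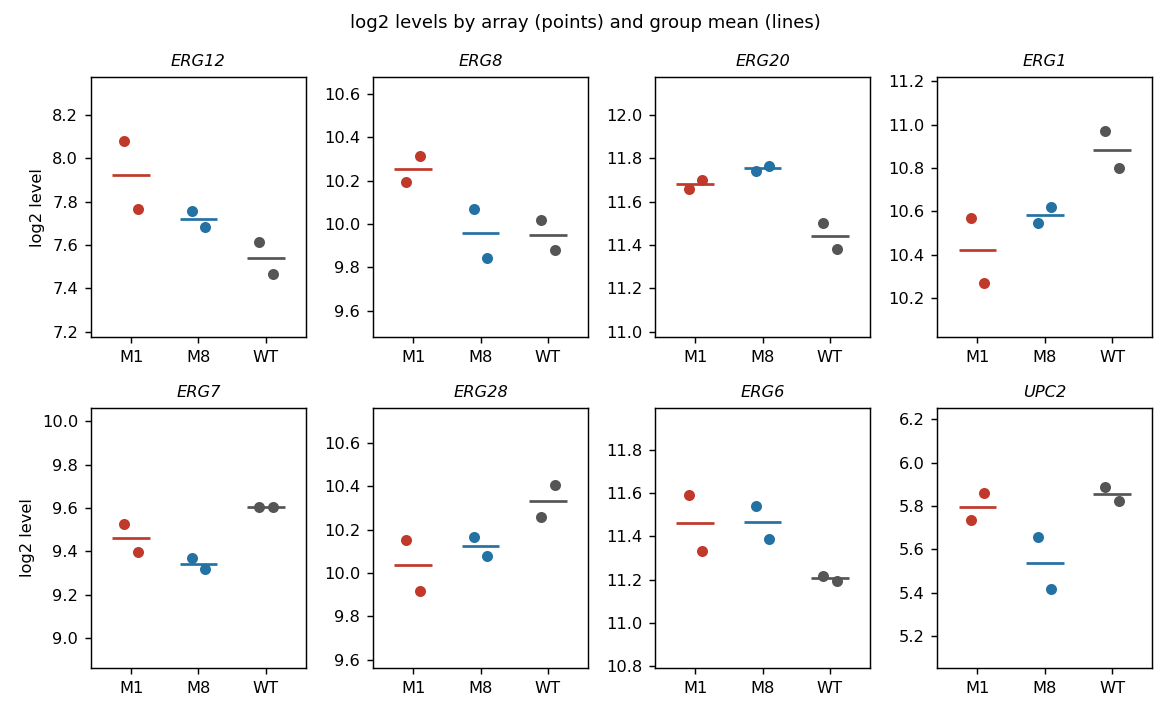
Log2 levels (y axis, each panel spanning the same range) of 8 sterol genes on each array, with M1 in red, M8 in blue and WT in grey; lines mark the means of the 2 arrays. ERG20 and ERG6 sit above WT and ERG1, ERG7 and ERG28 below it in all 4 mutant arrays.

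The 6 genes of lanosterol demethylation had medians of 0.061 in M1 and -0.038 in M8. ERG28 encodes a membrane anchor that holds Erg25, Erg26 and Erg27 together. Its log2 levels were 10.15 and 9.92 in M1 and 10.17 and 10.08 in M8, against 10.26 and 10.41 in WT, with all mutant arrays below both WT arrays. The difference was -0.30 (SE 0.13) in M1 and -0.21 (SE 0.13) in M8, with limma adjusted p = 0.594 and 0.822. ERG28 was not tested against the genes of the enzymes it anchors. ERG25, the sterol methyl oxidase gene, differed by 0.094 and -0.045 in M1 and M8. ERG26, the decarboxylase gene, differed by 0.079 and -0.12. ERG27, the ketoreductase gene, differed by -0.24 and -0.012, with both M1 arrays (9.89 and 9.68) below both WT arrays (9.99 and 10.05). ERG11, the lanosterol demethylase gene and the target of azole drugs, differed by 0.043 (SE 0.14) in M1, and by -0.031 (SE 0.14) in M8. ERG24, a sterol reductase gene, differed by 0.18 and 0.050.

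Among the 5 late genes, which turn zymosterol into ergosterol, ERG6 stood above WT in both mutants. ERG6 encodes the sterol methyltransferase that adds the side-chain methyl group found in ergosterol but not in cholesterol. It had log2 levels of 11.59 and 11.33 in M1 and 11.54 and 11.39 in M8, against 11.22 and 11.20 in WT. All mutant arrays exceeded both WT arrays, although the duplicates of each mutant were farther apart than those of WT. The difference was 0.26 (SE 0.13) in M1 and 0.26 (SE 0.13) in M8, with limma adjusted p = 0.633 and 0.754. ERG2, the sterol isomerase gene, differed by -0.26 and 0.017, and ERG3, a desaturase gene, by -0.11 and 0.16. ERG5, the gene of the cytochrome P450 desaturase, differed by -0.33 and -0.037, and ERG4, which encodes the reductase of the last step, by 0.015 and -0.10. ERG2, ERG3 and ERG5 each had M1 duplicates more than 0.5 apart.

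Neither electron donor gene passed at an unadjusted p under 0.05 in M1 or M8. NCP1, the gene of the reductase that feeds the cytochrome P450 enzymes Erg11 and Erg5, differed by 0.064 in M1 and 0.090 in M8. CYB5, the cytochrome b5 gene, differed by -0.16 and -0.060. Its M1 value ran from -0.44 to 0.12 over the alternative settings, so its direction in M1 was not resolved.

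ARE1 and ARE2 encode the paralogous acyl-CoA:sterol acyltransferases, of which Are2 provides most activity in air-grown cells. ARE2 had log2 levels of 8.18 and 7.31 in M1 and 7.56 and 7.37 in M8, against 7.31 and 7.27 in WT. The mutant arrays lay above both WT arrays, but M1 replicate 2 by a margin under 0.01, and M1 replicate 1 far above all others. ARE2 differed by 0.45 (SE 0.25) in M1, and by 0.17 (SE 0.25) in M8, with limma adjusted p = 0.648 and 0.924. Without M1 replicate 2 the M1 value was 0.88 (SE 0.12), with limma adjusted p = 0.0295, and without M1 replicate 1 it was 0.023. ARE1 had 7.40 and 7.004 in M1 and 7.33 and 7.55 in M8, against 7.44 and 7.43 in WT. Its difference was -0.23 (SE 0.16) in M1, where both arrays lay below WT, and 0.0033 (SE 0.16) in M8, where they spanned it.

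**Figure D3:**
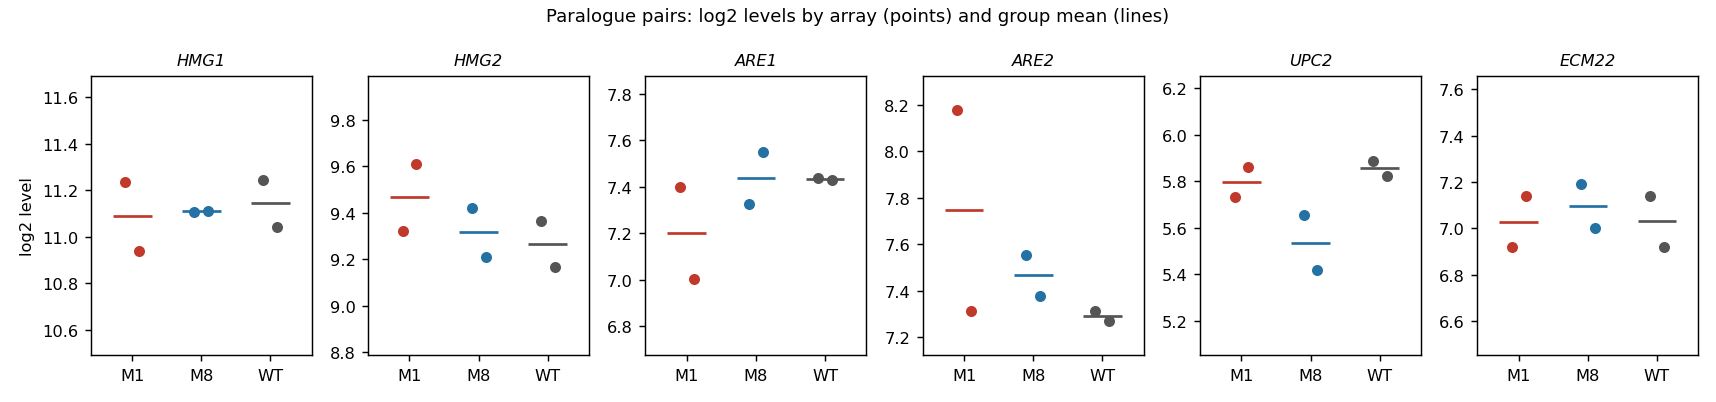
Log2 levels (y axis, each panel spanning the same range) of the paralogue pairs HMG1 and HMG2, ARE1 and ARE2, and UPC2 and ECM22 on each array, with M1 in red, M8 in blue and WT in grey; lines mark the means of the 2 arrays. The M1 duplicates of ARE2 lie 0.86 apart, and both M8 arrays of UPC2 lie below the M1 and WT arrays.

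The regulators showed a single member apart from WT. UPC2, whose product senses sterol and activates the pathway, had log2 levels of 5.73 and 5.86 in M1 and 5.66 and 5.42 in M8, against 5.89 and 5.82 in WT. Both M8 arrays were below all other arrays, while M1 overlapped WT. The difference was -0.32 (SE 0.13) in M8, with a 95% interval of -0.62 to -0.024 and limma adjusted p = 0.671, and -0.058 (SE 0.13) in M1. The signal was dim, with the mean level of UPC2 at percentile 39.6 of all probe sets. ECM22, the paralogue of UPC2, had 6.92 and 7.14 in M1 and 7.19 and 7.001 in M8, against 7.14 and 6.92 in WT, and the groups overlapped. It differed by -0.0010 (SE 0.14) in M1, and by 0.066 (SE 0.14) in M8. SUT1, a factor that promotes sterol uptake, differed by -0.21 (SE 0.18) and 0.088 (SE 0.18). HES1, an oxysterol-binding protein homologue, differed by 0.13 and 0.14, at a mean level on percentile 12.5, near the dim end of the array.

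The average of both mutants was also set against WT. At an unadjusted p under 0.05, ERG20 was higher (0.27, SE 0.096, limma adjusted p = 0.528) and ERG1 lower (-0.38, SE 0.12, limma adjusted p = 0.455), and no other member passed. These 2 members are 6.45% of the list, where 7.99% of all genes passed, 5.25% higher and 2.74% lower. The difference was below 0 for 15 members (48.4%), against 44.7% of all genes. After adjustment 0 members passed, against 0.053% of all genes higher and 0.0177% lower. All 4 mutant arrays were above both WT arrays for 4 members (ERG12, ERG20, ERG6 and ARE2), or 12.9%, beside 11.9% of all genes. They were below for 3 (ERG1, ERG7 and ERG28), or 9.68%, beside 6.86% of all genes. Both shares are near those of all genes. Without WT replicate 1, ERG1 had -0.30 and an unadjusted p of 0.116 in limma. ERG20 had 0.22 and an unadjusted p of 0.138 without WT replicate 2, and an unadjusted p of 0.0661 and 0.0764 without M8 replicate 1 and without M8 replicate 2.

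Between the mutants, limma called 0 members in M8 minus M1 after adjustment, as for 0% of all genes in each direction, and 0 members reached an unadjusted p under 0.05, where 6.44% of all genes did, 4.12% higher and 2.32% lower. Both M8 arrays lay above both M1 arrays for 3 members (9.68%, against 19.5% of all genes) and below them for 8 (25.8%, against 18.4%). The difference was below 0 for 13 members (41.9%), against 47.6% of all genes. The median over the members was 0.022, beside 0.0093 over all genes. The largest differences were those of ERG8 at -0.30 (SE 0.13), SUT1 at 0.29 (SE 0.18) and ERG13 at 0.29 (SE 0.25), and 95% intervals over the members reached from -0.86 to 0.88. The M8 and M1 differences from WT share the WT arrays, so values of a gene in both mutants are not independent.

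The M1 duplicates disagreed on several sterol genes. In M1, 7 of 31 members lay more than 0.5 apart between replicates on the log2 scale, against 0 in M8 and 0 in WT. Over all genes that share was 13.4% in M1, 0.389% in M8 and 1.68% in WT. The 7 were ERG13 (-0.88, replicate 2 minus replicate 1), ARE2 (-0.86), ERG5 (-0.79), MVD1 (-0.69), ERG3 (-0.56), CYB5 (-0.56) and ERG2 (-0.51), and in each M1 replicate 2 was the lower. The median of replicate 2 minus replicate 1 was -0.22 over the members in M1, against -0.072 over all genes. Of the members 24 are among the 1414 genes with the highest mean levels, where that median was -0.12. The share of those 1414 genes more than 0.5 apart was not taken. Whether the disagreement is particular to the sterol genes was not tested. The members' medians were -0.022 in M8 and -0.045 in WT.

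With a single M1 array in the fit, assumed to vary like the other groups, more members passed. With M1 replicate 2 alone, limma called 4 members lower than WT after adjustment, which were ERG13 at -0.65, ERG1 at -0.61, ERG2 at -0.51 and ERG5 at -0.72, with adjusted p from 0.0204 to 0.0428. These are 12.9% of the members, against 4.33% of all genes called lower in that fit. With M1 replicate 1 alone, ERG13 had 0.23, ERG2 had 0.0017 and ERG5 had 0.064, and ARE2 was the only member called (3.23%, against 0.442% of all genes called higher). ARE2 was also called for the mean of the mutants (0.53, limma adjusted p = 0.0369), where 1.31% of all genes were called higher. In M8 minus M1, M1 replicate 2 alone gave 5 limma calls, all higher in M8, for ERG13 at 0.73, ERG5 at 0.68, ERG3 at 0.55, MVD1 at 0.53 and ERG2 at 0.53, with adjusted p from 0.0129 to 0.0333. These are 16.1% of the members, against 8.96% of all genes called higher in that fit. ERG1 had -0.31 with M1 replicate 1 alone and was below WT under all 15 alternative settings in each mutant. That sign was largely fixed beforehand, since many settings leave the difference unchanged and no mutant array of ERG1 overlapped WT.

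**Figure D4:**
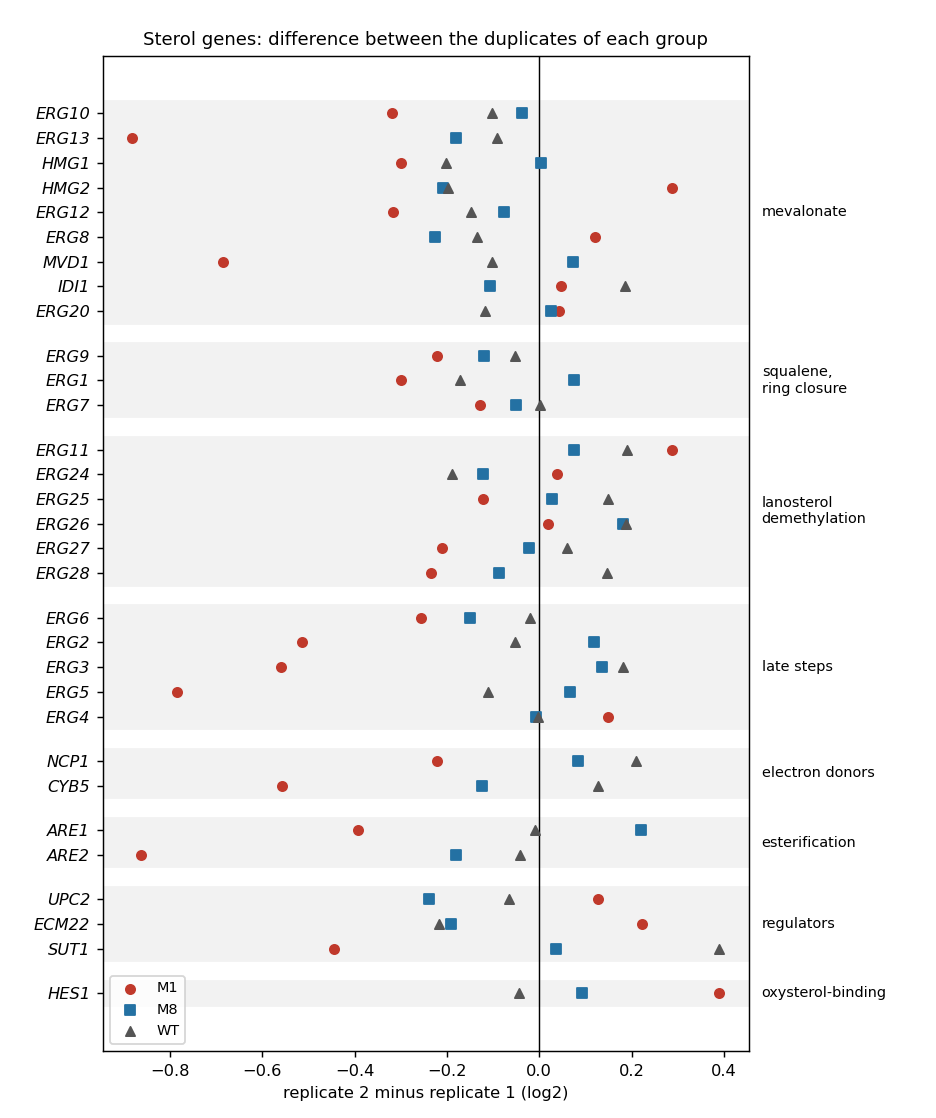
Difference between the duplicates, replicate 2 minus replicate 1 on the log2 scale (x axis), of each sterol gene (rows, in pathway order) in M1 (red circles), M8 (blue squares) and WT (grey triangles). The M1 points reach -0.88 at ERG13, while the M8 and WT points stay within 0.39 of 0.

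Genes around the pathway, taken from lists of sterol transport, ester turnover, enzyme turnover, electron supply, other isoprenoid users and oxygen or haem regulators, gave counts of 0 to 2 genes per list in each mutant. Of the 16 sterol transport genes, 1 was lower in M1 at an unadjusted p under 0.05 (6.25%, against 3.47% of all genes) and 0 in M8 (against 2.32%), with medians of 0.015 and 0.080. The lower one was PRY1, a secreted sterol-binding protein gene named after its values were seen, with -0.61 (SE 0.19) in M1 and 0.073 (SE 0.19) in M8. Its log2 levels were 9.06 and 8.46 in M1 and 9.35 and 9.54 in M8, against 9.39 and 9.36 in WT.

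Of the 5 genes of steryl ester and sterol acetate turnover, 1 was lower in M1 (20%, against 3.47% of all genes) and 2 in M8 (40%, against 2.32%). ATF2 encodes the acetyltransferase that acetylates sterols and steroids, and it had the lowest value of the list in both mutants. ATF2, and NSG1, MCR1 and SUT2 below, were also named because of their values, by a rule given with the processing. Its log2 levels were 6.39 and 6.39 in M1 and 6.55 and 6.62 in M8, against 7.05 and 6.79 in WT, with all mutant arrays below both WT arrays. The M1 minus WT difference of ATF2 was -0.53 (SE 0.13) and the M8 minus WT difference -0.34 (SE 0.13), with limma adjusted p = 0.364 and 0.66. SAY1, the gene of the deacetylase that reverses this reaction, named after its values were seen, differed by -0.032 (SE 0.11) in M1, and by -0.28 (SE 0.11) in M8.

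Among the 9 genes that control turnover of HMG-CoA reductase and squalene epoxidase, 1 was lower in M1 (11.1%, against 3.47% of all genes) and 0 in M8 (against 2.32%). NSG1, an Insig homologue whose product stabilises Hmg2, differed by -0.38 (SE 0.13) in M1, and by -0.20 (SE 0.13) in M8. Among the 7 genes of electron supply and haem, 1 was lower in M1 (14.3%, against 3.47% of all genes) and 0 in M8 (against 2.32%). The lower one was DAP1, a haem-binding partner of Erg11 named after its values were seen, with -0.32 (SE 0.12). MCR1, a mitochondrial cytochrome b5 reductase gene, differed by 0.29 (SE 0.13) in M1, and by 0.25 (SE 0.13) in M8, with all mutant arrays above both WT arrays. Of the 11 other users of isoprenoids, 1 was higher in M1 (9.09%, against 5.11% of all genes) and 0 in M8 (against 4.74%). That gene was SRT1, a dolichol synthesis gene named after its values were seen, at 0.29 (SE 0.12).

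Of the 8 oxygen and haem regulators, 1 was higher in M1 (12.5%, against 5.11% of all genes) and 0 in M8 (against 4.74%). Both M8 arrays lay above both WT arrays for 6 of the 8 (75%, against 29% of all genes) and below them for the other 2 (25%, against 19.1%). In M1 25% lay above and 12.5% below, against 22% and 13.5% of all genes. The list's median difference in M8 was 0.20, beside 0.029 over all genes. Of the sterol transport genes 43.8% lay above WT in M8, of electron supply 14.3%, enzyme turnover 11.1%, other isoprenoid users 9.09% and ester turnover 0%. In that order 0%, 14.3%, 33.3%, 0% and 40% lay below. The lists were chosen with earlier results of these data known. SUT2, the paralogue of SUT1, had log2 levels of 7.36 and 7.49 in M1 and 7.37 and 7.41 in M8, against 7.19 and 7.09 in WT, with no overlap. It differed by 0.28 (SE 0.11) in M1, and by 0.25 (SE 0.11) in M8, with limma adjusted p = 0.544 and 0.721. HAP1, the haem-responsive activator of several sterol genes, differed by -0.16 (SE 0.11) and -0.11 (SE 0.11). Its 2 other probe sets gave -0.24 and 0.075 in M1 and -0.25 and 0.086 in M8. MOT3, a repressor of sterol and anaerobic genes, differed by 0.21 (SE 0.13) and 0.25 (SE 0.13). ROX1, the repressor of anaerobic genes, differed by -0.10 (SE 0.16) in M1, and by 0.30 (SE 0.16) in M8, and M8 minus M1 was 0.40 (SE 0.16, limma adjusted p = 0.721). ROX1 had log2 levels of 7.84 and 7.43 in M1 and 7.92 and 8.16 in M8, against 7.69 and 7.79 in WT, so the M1 arrays lay on either side of WT.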

How the data were processed

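The authors deposited log2 expression levels per probe set for 6 arrays (biotin-labelled from total RNA, per the labels' protocols). The submitters' processing notes name RMA and oligo, without settings. Because RMA equalises the probe distributions of the arrays, a shift of all genes would be hidden, and no detection calls were used. The number of arrays limits the precision. All 6504 one-gene probe sets were matched to the R64 gene table by gene identifier, with 0 symbols updated, and 328 probe sets with several genes and 2443 with none were left out. The probe set with the highest mean stood for each of 5656 genes. Group means of all 6 arrays were fitted with limma 3.58.1 in R 4.3.3 (eBayes defaults, 3 residual degrees of freedom), with two-sided p-values adjusted over all genes by the Benjamini-Hochberg method. The calculation was tested on simulated data with the same spread for every gene and group, which these arrays do not have. Members and lists were chosen with earlier results of these data known. All members are named. Values by array are given for members with an unadjusted p under 0.05 and for 3 paralogue pairs. They are also given for members with all mutant arrays on 1 side of WT. Of the surrounding lists, HAP1, ROX1 and MOT3 were named whatever their values. Other genes of these lists were named by their values, up to 3 per list. The rule took the smallest limma p for the mean of both mutants minus WT, among genes with an unadjusted p under 0.05. Genes named outside that rule are marked. Alternatives covered scaling, probe sets, filtering, the estimate of the spread and left-out arrays.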

Additional observations from a re-analysis of the deposited data

How the results depend on the processing

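With all 6 arrays, 0 sterol genes were called after adjustment under any alternative in any comparison. Whether replicate numbers pair the samples is not known. Deviations of same-numbered arrays correlated at -0.306 (WT and M1), 0.297 (WT and M8) and -0.111 (M1 and M8). With 2 arrays per group each correlation rests on 1 contrast per group, so it cannot decide this. With the replicate block, the unadjusted count was 1 in M8 minus WT (3 without it) and 4 for the mean of the mutants (2 without it), and the block changed no adjusted call. The unadjusted count was 1 in M1 and 5 in M8 with only the groups of the comparison, 4 for the mean of the mutants with median centring and also 4 with quantile normalization, and 1 in M8 minus M1 with quantile normalization, where the median over the members in M1 minus WT was 0.0336. Leaving out 1 array at a time gave 0 to 4 adjusted calls, 1 to 15 unadjusted and medians of -0.0243 to 0.0644 in M1 minus WT, with the highest counts without M1 replicate 1 and the highest median without M1 replicate 2. In M8 minus WT it gave 0 adjusted calls and 0 to 5 unadjusted, with 5 without either M1 array and 0 without WT replicate 2 or M8 replicate 2. For the mean of the mutants it gave 0 to 1 adjusted calls, 1 to 10 unadjusted and medians of -0.042 to 0.0383. In M8 minus M1 it gave 0 to 5 adjusted calls, 0 to 12 unadjusted and medians of -0.102 to 0.13, again with the highest counts without M1 replicate 1. The cause of these highest counts was not tested. Without M1 replicate 1 the M1 group rests on M1 replicate 2, the array most distant from the others over all probe sets. The unadjusted counts under the alternatives were not set beside the share of all genes in the same fits. Whether they are particular to the sterol genes was therefore not tested. UPC2 and HES1 were absent from the fit that left out the dimmest genes. With 2 arrays per group and no detection call, small differences of dim genes such as these were not resolved.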
